A study of Homo sapiens with 18 samples.

Results

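FJX1 and 9 genes of the Hippo-YAP and Fat-Dachsous pathways (FAT1, FAT4, DCHS1, LATS2, AMOTL2, CYR61, CTGF, ANKRD1 and AXL) were followed by RNA sequencing through cytarabine treatment of U2OS cells. They were taken by symbol from a table of 25296 genes, and all 10 were among the 18226 genes that passed a filter on low counts. FJX1 was selected on its measured fall under cytarabine in every line, so its cytarabine values are a description and carry no test. The other 9 were taken for their known place in the pathway, with earlier results of these data in view.

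U2OS is an established human osteosarcoma line. From it 3 lines had been made with the retroviral vector MigR1, which was empty in EV and expressed the DNA methyltransferase DNMT3A in its wild-type form in WT and in a mutant form in MUT. The mutation is R882C in the series text but R882H in the sample labels. RNA was taken from untreated cells and from cells given 10 µM cytarabine (Ara-C) for 24 h, with 3 replicates per line and condition, 18 libraries in all. Cytarabine is a nucleoside drug whose incorporation into DNA stalls replication. The untreated cells are named a vehicle control in the series text. DNMT3A was overexpressed on the cells' own DNMT3A background, and whether a line is a clone or a pool is not given in the sources used here.

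The Hippo pathway is a kinase cascade in which the MST kinases activate LATS1 and LATS2. LATS kinases phosphorylate the coactivators YAP and TAZ and keep them out of the nucleus. Free YAP and TAZ enter the nucleus, bind TEAD transcription factors and switch on growth and matrix genes such as CTGF, CYR61 and ANKRD1, together with genes that restrain the pathway in turn, such as LATS2 and AMOTL2. Upstream, the giant cadherins FAT4 and DCHS1 bind each other between cells. The fly gene four-jointed, of which FJX1 is the human counterpart, encodes a Golgi kinase that modifies the extracellular domains of Fat and Dachsous and tunes that binding. FJX1 is also itself in a published signature of 22 YAP and TAZ target genes in human tumours.

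The start sites of 3 members are shown as examples that differ in the TEAD motif. They were picked with their cytarabine values known, and a link between motif and response was not tested. Each RefSeq window (GRCh38.p14) runs 5′ to 3′ on the gene's strand, from 250 bases before the start to 50 bases after it. Capitals mark the TEAD core GGAATG and the AP-1 motif TGANTCA, searched on both strands, where N is any base. The windows lie at chr11:35618210-35618509 on the plus strand for FJX1, chr6:131951323-131951622 on the minus strand for CTGF and chr10:90921038-90921337 on the minus strand for ANKRD1.
FJX1: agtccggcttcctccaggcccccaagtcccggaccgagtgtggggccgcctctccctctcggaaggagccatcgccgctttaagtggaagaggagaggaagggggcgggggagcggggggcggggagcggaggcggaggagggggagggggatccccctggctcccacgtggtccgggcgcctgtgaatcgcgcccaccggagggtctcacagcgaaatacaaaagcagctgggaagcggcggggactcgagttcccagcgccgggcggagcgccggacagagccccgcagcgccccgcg
CTGF: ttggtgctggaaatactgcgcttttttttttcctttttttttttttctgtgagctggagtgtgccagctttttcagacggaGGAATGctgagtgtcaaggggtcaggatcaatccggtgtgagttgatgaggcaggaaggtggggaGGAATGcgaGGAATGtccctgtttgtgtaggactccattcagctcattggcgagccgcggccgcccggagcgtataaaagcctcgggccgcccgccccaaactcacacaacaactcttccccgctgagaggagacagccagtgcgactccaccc
ANKRD1: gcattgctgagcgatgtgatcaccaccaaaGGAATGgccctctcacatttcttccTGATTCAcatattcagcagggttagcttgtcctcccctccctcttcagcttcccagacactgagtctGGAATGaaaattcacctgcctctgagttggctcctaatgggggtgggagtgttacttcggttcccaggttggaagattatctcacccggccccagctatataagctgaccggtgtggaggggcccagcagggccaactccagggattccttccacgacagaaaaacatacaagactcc
CTGF held 3 TEAD cores, at positions -169, -104 and -95 from the start, and ANKRD1 held 2, at -220 and -128, with an AP-1 match at -195 that overlapped no core. Neither motif was found in the FJX1 window. Of all 35116 RefSeq windows of this length, 14.0% held a TEAD core, 1.37% held at least 2 and 0.128% at least 3, while 7.71% held the AP-1 motif. Windows were at hand for 7 members (10 windows), and 5 of the 7 held a core, since LATS2 had 1 at position 9 and an alternative start each of AMOTL2 and AXL had 1 on the opposite strand, at -69 and -212. FAT1 held none. A match is a run of letters and not a measured binding site.

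Library totals ran from 15.4 to 21.9 M estimated counts, and no member had fewer than 62 counts in any library. Values are given as CPM, counts scaled to a common library size by edgeR with TMM factors. DNMT3A, which checks the line labels, lay at 26.2 to 27.5 CPM in untreated and 45.5 to 49.6 CPM in treated EV libraries. In WT it lay at 129 to 139 CPM untreated and 166 to 182 CPM treated. In MUT it lay at 254 to 615 CPM untreated and 515 to 532 CPM treated. Of the 6 bone and mesenchymal markers, all were measured, and their summed level was 3115 to 3912 CPM untreated and 2259 to 2712 CPM treated, with COL1A2 at 0.292 to 8.11 CPM. The summed levels of 4 epithelial markers (2.22 to 6.08 CPM untreated, 4.0 to 9.61 CPM treated) and 4 endothelial markers (1.32 to 4.81 and 3.43 to 11.2 CPM) were low throughout. The haematopoietic markers PTPRC, SPI1 and CD14 reached at most 1.41, 0.428 and 0.251 CPM. CLDN3, ESRP1, SPI1, CD14 and PECAM1 were at 0 in at least 1 library. The part of these shifts in the results was not tested. In RNA from whole cultures, fewer cells of a type and less RNA per cell cannot be told apart.

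The untreated MUT libraries stood apart, and several results below rest on them. In replicate 3 the median gene with a transcript over 10 kb was 0.40 lower on the log2 CPM scale than in the other 2 libraries of its group, and the median gene under 2 kb was 0.31 higher. Replicate 2 went the other way, with 0.31 and -0.20. In the other 5 groups the same medians lay between -0.19 and 0.19 over 10 kb and between -0.07 and 0.05 under 2 kb. The ends of both ranges came from treated EV. Its replicate 1 was at -0.19 over 10 kb and 0.05 under 2 kb, and its replicate 2 at 0.19 and -0.07. The longest members are FAT4 (17.2 kb), FAT1 (14.8 kb) and DCHS1 (10.7 kb). Under cytarabine the median gene over 10 kb changed by -0.03, 0.05 and 0.21 in EV, WT and MUT. The median gene of 5 to 10 kb changed by -0.06, -0.01 and 0.08. The part of transcript length in the MUT and EV values of members and pathway lists was not tested.

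**Figure D1:**
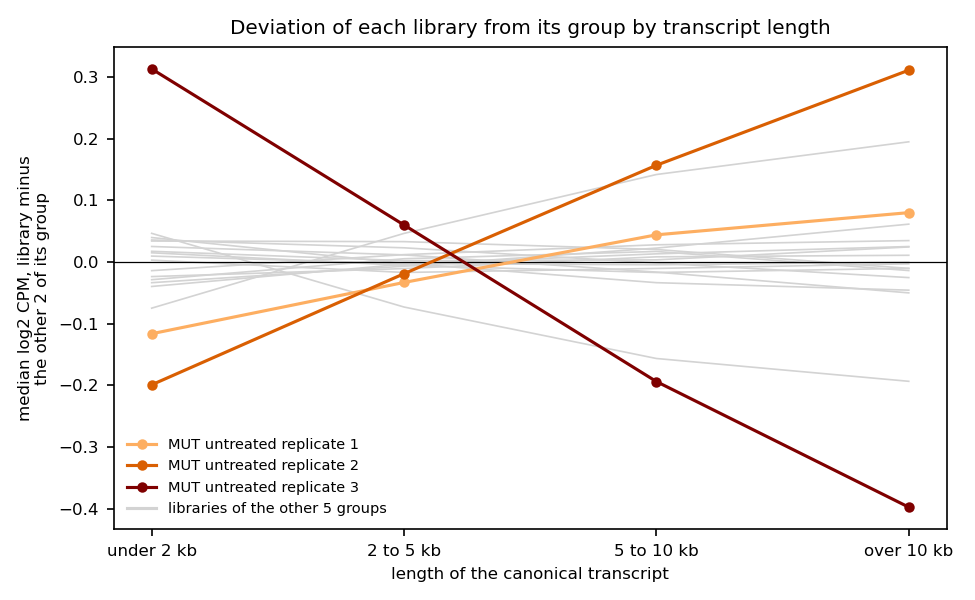
Median deviation of each library from the other 2 of its group (log2 CPM, vertical axis) in 4 classes of transcript length (horizontal axis), for genes whose mean log2 CPM was 4 or more; coloured lines are the 3 untreated MUT libraries and grey lines all others. Replicate 3 of untreated MUT falls from 0.31 under 2 kb to -0.40 over 10 kb, and replicate 2 rises from -0.20 to 0.31.

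FJX1 fell more than 4-fold in every line. The gene is a single exon of 2406 bases (chromosome 11, 35618419 to 35620869, plus strand, hg38). In EV cells the untreated libraries gave 93.4, 96.5 and 91.5 CPM and the treated ones 21.7, 22.6 and 18.6 CPM. In WT the values were 129.9, 139 and 136 CPM untreated and 20.5, 33.5 and 30.5 CPM treated. In MUT they were 107, 102 and 114 CPM untreated and 22.8, 23.9 and 24.7 CPM treated. The lowest untreated library thus lay well above the highest treated library within each line. The EV, WT and MUT log2 fold changes of -2.17, -2.27 and -2.17 (SE 0.122, 0.119 and 0.120) correspond to 4.48-fold, 4.81-fold and 4.51-fold lower levels. Of 9051 genes expressed at a mean log2 CPM of 4 or more, none fell further in EV or in WT and 1 did in MUT. Over all 18226 tested genes, 16, 76 and 77 genes had a larger fitted fall in EV, WT and MUT.

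The treated FJX1 levels kept the order of the untreated ones in their means, at 21.0 ± 2.10 CPM (SD, n = 3) in EV, 23.8 ± 0.938 CPM in MUT and 28.1 ± 6.83 CPM in WT. On the log2 scale the size of the fall differed by -0.10 for WT minus EV, -0.01 for MUT minus EV and 0.09 for MUT minus WT. Their SEs were 0.167, 0.168 and 0.165. These differences are a description and were not tested, since FJX1 was chosen on the falls.

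**Figure D2:**
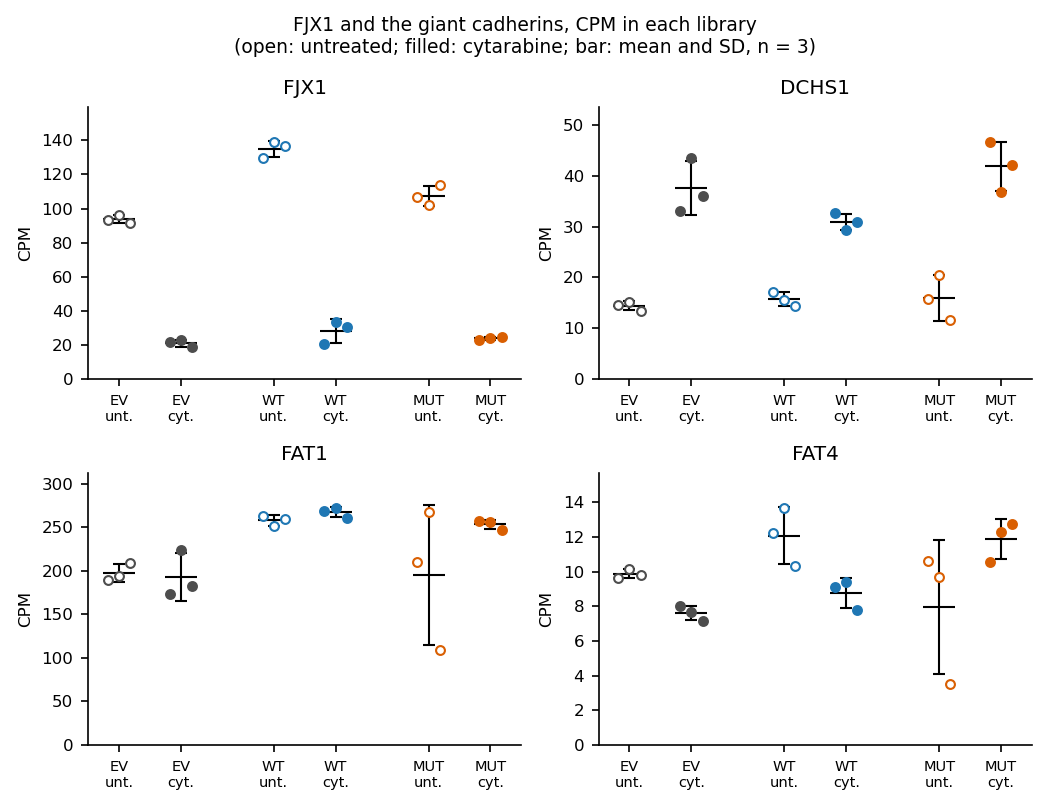
CPM (vertical axes, from 0) of FJX1, DCHS1, FAT1 and FAT4 in each library by line, open circles untreated and filled circles treated with cytarabine; bars give mean and SD of 3 replicates. FJX1 falls from 91.5 to 139 CPM to 18.6 to 33.5 CPM, DCHS1 rises in all lines, and 1 untreated MUT library is low in FAT1 (109 CPM) and FAT4 (3.54 CPM).

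None of the giant cadherins DCHS1, FAT4 and FAT1 fell in every line as FJX1 did. DCHS1, the cadherin that serves as ligand for FAT4, rose in every line. FAT4 was lower in EV and WT without passing the test on all libraries. In MUT it was higher through the low untreated replicate 3. FAT1 did not change by the test in any line. DCHS1 (chromosome 11, 6621323 to 6655855, minus strand) was at 14.6, 15.2 and 13.5 CPM in untreated EV and 33.1, 43.4 and 36.1 CPM in treated EV. The WT libraries gave 17.2, 15.5 and 14.4 CPM, then 32.6, 29.3 and 30.8 CPM. The MUT libraries gave 15.7, 20.5 and 11.7 CPM, then 46.5, 36.9 and 42.2 CPM. Treated and untreated libraries did not overlap in any line. In EV, WT and MUT the log2 fold changes were 1.38, 0.98 and 1.40 (SE 0.149, 0.147 and 0.147), that is 2.6-fold, 1.97-fold and 2.64-fold higher, with adjusted p of 3.8e-07, 1.9e-05 and 1.7e-07 in edgeR's quasi-likelihood test with Benjamini-Hochberg adjustment over all genes. Without untreated MUT replicate 3 the MUT value was 1.19 (edgeR adjusted p 2.6e-07).

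FAT4 (chromosome 4, 125316399 to 125492933, plus strand), the receptor for DCHS1, was the least abundant member. Untreated EV libraries held 9.64, 10.2 and 9.84 CPM and treated ones 8.02, 7.68 and 7.18 CPM. WT libraries held 12.3, 13.7 and 10.3 CPM untreated and 9.09, 9.40 and 7.78 CPM treated. MUT libraries held 10.6, 9.69 and 3.54 CPM untreated and 10.6, 12.3 and 12.8 CPM treated. In EV and WT every treated library lay below every untreated one, but the log2 fold changes of -0.37 and -0.47 (SE 0.238 and 0.231) did not pass the test (edgeR adjusted p 0.208 and 0.104). They passed when only the 2 groups compared were fitted, at -0.36 and -0.46 (edgeR adjusted p 0.0243 and 0.00201). In MUT the value was 0.58 (SE 0.233, edgeR adjusted p 0.0423), and the treated and untreated libraries overlapped. That call rested on the low untreated replicate 3, since without it the log2 fold change was 0.19 (edgeR adjusted p 0.220). It was also lost without MUT cytarabine replicate 2 or 3, with the RLE or the authors' library factors, without the filter on low counts and when only the 2 groups compared were fitted (edgeR adjusted p from 0.0529 to 0.187).

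FAT1 (chromosome 4, 186587783 to 186726723, minus strand), a giant cadherin of the same family, did not change by the test in any line. Its EV libraries held 189, 194 and 209.6 CPM untreated and 173, 224 and 182 CPM treated. Those of WT held 263, 252 and 259 CPM untreated and 269, 272 and 261 CPM treated. In MUT they held 209.97, 268 and 109 CPM untreated and 257, 256 and 247 CPM treated. The groups overlapped in all lines. The fitted log2 fold changes were -0.03 (95% interval -0.42 to 0.36), 0.05 (-0.34 to 0.44) and 0.37 (-0.01 to 0.76) in EV, WT and MUT, with edgeR adjusted p of 0.898, 0.839 and 0.0931. Without untreated MUT replicate 2, the library highest in long transcripts, the MUT value was 0.63 (edgeR adjusted p 0.00185), and without the low replicate 3 it was 0.055 (edgeR adjusted p 0.642).

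LATS2 and AMOTL2, the targets that feed back on the pathway, fell in EV and WT. LATS2 (chromosome 13, 20973032 to 21061548, minus strand), the kinase that inactivates YAP and TAZ, was at 60.7, 62.9 and 67.4 CPM in untreated EV and 43.6, 54.7 and 49.7 CPM in treated EV. In WT it was at 62.2, 64.8 and 67.2 CPM untreated and 50.4, 51.1 and 50.7 CPM treated. In MUT it was at 76.6, 76.6 and 57.4 CPM untreated and 74.3, 69.6 and 73.8 CPM treated. The groups were separate in EV and WT and overlapped in MUT. On the log2 scale the changes were -0.37, -0.35 and 0.05 (SE 0.096, 0.095 and 0.094), with edgeR adjusted p of 0.00350, 0.00473 and 0.689. The small MUT value turned to -0.11 without untreated replicate 3 (edgeR adjusted p 0.211).

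AMOTL2 (chromosome 3, 134355874 to 134375480, minus strand) encodes an angiomotin that holds YAP at cell junctions. Its levels were 219, 224 and 232 CPM in untreated EV and 176, 189.7 and 177 CPM in treated EV. In WT they were 256, 252 and 265 CPM untreated and 169, 189 and 175 CPM treated. In MUT they were 251, 270.1 and 191 CPM untreated and 211, 222 and 224 CPM treated. EV and WT libraries separated by treatment, while untreated MUT replicate 3 fell below all treated MUT libraries. The log2 fold changes were -0.32, -0.53 and -0.12 (SE 0.090 each), with edgeR adjusted p of 0.00697, 6.9e-05 and 0.284. Without untreated MUT replicate 3 the MUT value was -0.28 with an edgeR adjusted p of 5.5e-04, and with the authors' library factors it was -0.20 (0.0493).

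The classical YAP and TAZ targets moved apart from each other. ANKRD1 rose about 2-fold in every line, AXL fell in every line, and CYR61 and CTGF did not pass the test in any. ANKRD1 (chromosome 10, 90912096 to 90921277, minus strand) encodes an ankyrin repeat protein of muscle sarcomeres and nuclei, and its start site with 2 TEAD cores is printed above. It was at 224, 207 and 222 CPM in untreated EV and 457, 511 and 530.1 CPM in treated EV. In WT it went from 244, 233 and 243 CPM to 505, 507 and 495 CPM, and in MUT from 179, 175 and 235 CPM to 440.0, 466 and 450 CPM. Every treated library held more ANKRD1 than every untreated one. The log2 fold changes were 1.20, 1.07 and 1.20 (SE 0.089, 0.088 and 0.089), or 2.29-fold, 2.09-fold and 2.30-fold, with edgeR adjusted p of 3.4e-09, 1.3e-08 and 1.8e-09. Its transcript is 1.79 kb, and the median gene under 2 kb with a mean log2 CPM of 4 or more changed by -0.22, -0.22 and -0.39 in EV, WT and MUT.

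AXL (chromosome 19, 41219203 to 41261767, plus strand), a receptor tyrosine kinase for GAS6, was at 429, 414 and 406 CPM in untreated EV and 242, 348 and 281 CPM in treated EV. The WT libraries gave 427, 403 and 425 CPM, then 284, 319 and 291 CPM, and the MUT libraries 367, 545 and 357 CPM, then 286, 294 and 281 CPM. No treated library reached the lowest untreated library of its line. The log2 fold changes of -0.52, -0.49 and -0.56 (SE 0.129 each) had edgeR adjusted p of 0.00233, 0.00385 and 0.00109.

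CYR61 (CCN1, chromosome 1, 85580761 to 85583963, plus strand), a secreted matrix protein that binds integrins, was the most abundant member. It was at 785, 750.02 and 777 CPM in untreated EV and 648, 611 and 714 CPM in treated EV. In WT it was at 961, 1035 and 1009 CPM untreated and 885, 954 and 892 CPM treated. In MUT it was at 871, 529 and 913 CPM untreated and 755, 825 and 830.1 CPM treated. The EV and WT groups did not overlap. All the same, the log2 fold changes of -0.23, -0.14 and 0.06 (95% intervals -0.50 to 0.04, -0.41 to 0.13 and -0.21 to 0.33) did not pass (edgeR adjusted p 0.152, 0.395 and 0.718). When the 2 groups compared were fitted alone, so that the spread came from their libraries, CYR61 was called lower in EV (-0.22) and in WT (-0.13), with edgeR adjusted p of 0.0132 and 0.00417. The MUT value hung on untreated replicate 2, without which it was -0.19 (edgeR adjusted p 0.0256).

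CTGF (CCN2, chromosome 6, 131948176 to 131951374, minus strand), a secreted protein of the same CCN family, has the start site with 3 TEAD cores. It was at 297, 274 and 293 CPM in untreated EV and 278, 292 and 304 CPM in treated EV. In WT it was at 645, 662 and 665 CPM untreated and 563, 639 and 568 CPM treated. In MUT it was at 322, 249 and 307 CPM untreated and 281, 301 and 302 CPM treated. The treatment groups overlapped in EV and MUT but not in WT. Fitted log2 fold changes were 0.02 (95% interval -0.15 to 0.19), -0.16 (-0.32 to 0.01) and 0.01 (-0.16 to 0.18), with edgeR adjusted p of 0.883, 0.116 and 0.929. The WT value passed with the authors' library factors (-0.22, edgeR adjusted p 0.0323) and when the 2 groups were fitted alone (-0.15, edgeR adjusted p 0.00298).

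**Figure D3:**
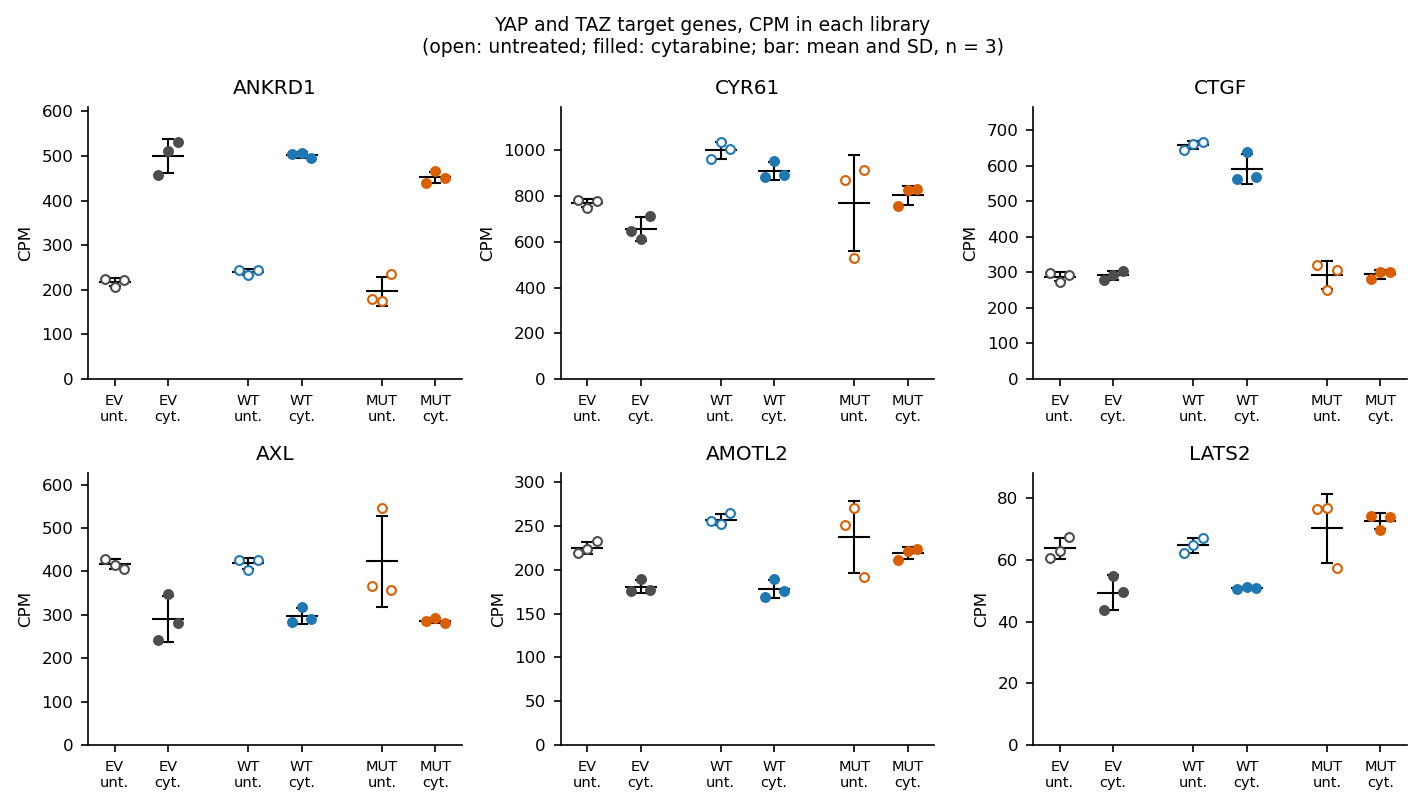
CPM (vertical axes, from 0) of ANKRD1, CYR61, CTGF, AXL, AMOTL2 and LATS2 in each library by line, open circles untreated and filled circles treated; bars give mean and SD of 3 replicates. ANKRD1 rises and AXL falls in all lines, while CTGF separates WT (563 to 665 CPM) from EV and MUT (249 to 322 CPM) with or without cytarabine.

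Of the 9 members other than FJX1, 2 were called higher (ANKRD1 and DCHS1) and 3 lower (AMOTL2, AXL and LATS2) in EV. In WT the calls were likewise 2 higher (ANKRD1 and DCHS1) and 3 lower (AMOTL2, AXL and LATS2). In MUT, 3 were called higher (ANKRD1, DCHS1 and FAT4) and 1 lower (AXL). Among all tested genes, 26.1% were called higher and 22.9% lower in EV, 26.3% and 22.7% in WT, and 30.4% and 25.9% in MUT. With 9 genes these shares are near the background, so the counts say nothing particular about the set. The median log2 fold change of the 9 was -0.23, -0.16 and 0.06 in EV, WT and MUT, beside 0.05, 0.03 and 0.05 over all tested genes.

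**Figure D4:**
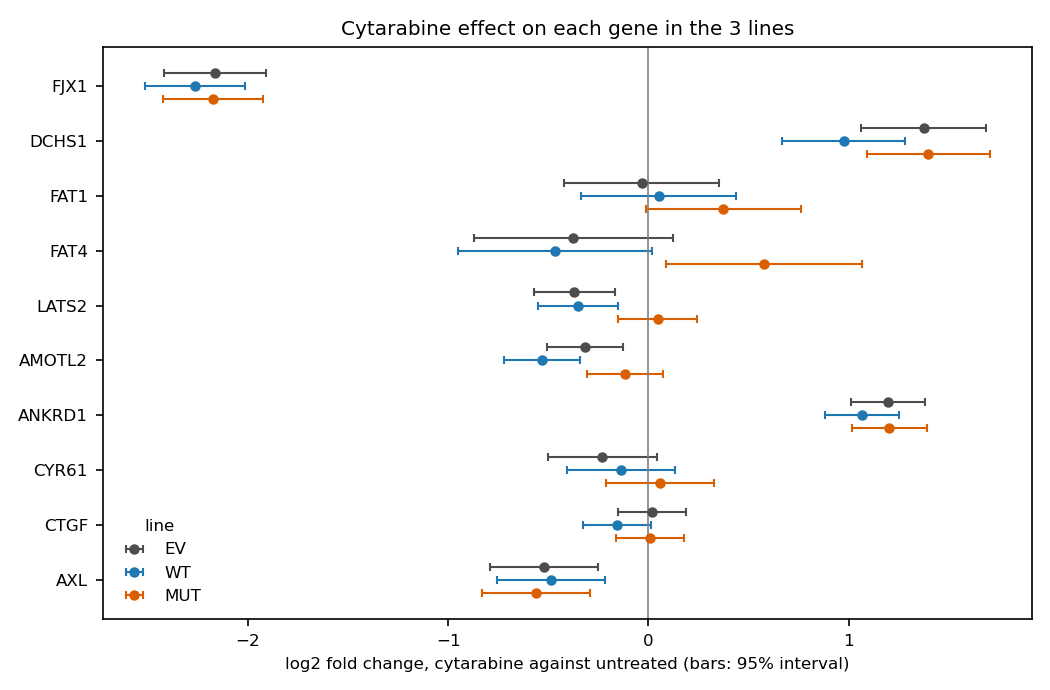
Log2 fold change under cytarabine (horizontal axis) of each gene in EV, WT and MUT cells, with 95% intervals from the edgeR fit; FJX1 is a description, since it was chosen on these values. FJX1 lies between -2.27 and -2.17 in every line, ANKRD1 and DCHS1 between 0.98 and 1.40, AXL between -0.56 and -0.49, and FAT4, LATS2 and AMOTL2 have their highest values in MUT, with no difference between lines called in edgeR.

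Whether the lines differed in these effects was tested with interaction contrasts. No member other than FJX1 was called, of 9 in each contrast, beside 0.285% of all genes for WT minus EV, 0.214% for MUT minus EV and 1.00% for MUT minus WT. At an unadjusted p under 0.05 there were 0, 2 and 3 members in the same contrasts in edgeR, and DESeq2 called 0, 0 and 1. The widest gap was that of FAT4, whose effect was 0.95 (SE 0.334) higher in MUT than in EV and 1.04 (SE 0.329) higher than in WT, with edgeR adjusted p of 0.185 and 0.126. DESeq2 called the FAT4 gap between MUT and WT (1.0, adjusted p 0.0493), and so did edgeR without untreated MUT replicate 1 (1.32, adjusted p 0.0296, and 1.23 against EV, adjusted p 0.0473), which leaves the low replicate 3 as 1 of 2 libraries. Without replicate 3 the gaps were 0.57 against EV and 0.66 against WT (edgeR adjusted p 0.117 and 0.0588). LATS2 differed by 0.42 and 0.40 (SE 0.134 each) in the same comparisons, with edgeR adjusted p of 0.159 and 0.149, and AMOTL2 by 0.42 (SE 0.127) between MUT and WT, with 0.118. The AMOTL2 gap passed without untreated MUT replicate 2 (0.48, edgeR adjusted p 0.0244). Without untreated MUT replicate 3 it was 0.25, and the LATS2 gaps were 0.26 against EV and 0.24 against WT (edgeR adjusted p 0.114, 0.182 and 0.220).

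The lines differed most in CTGF, which WT cells held at more than 2-fold the level of the other lines. In untreated cells the means were 657 ± 11.1 CPM (SD, n = 3) in WT, 288 ± 12.3 CPM in EV and 293 ± 38.2 CPM in MUT. The log2 fold change was 1.19 (SE 0.082, edgeR adjusted p 7.2e-09) for WT minus EV and -1.17 (SE 0.082, edgeR adjusted p 8.0e-09) for MUT minus WT. Under cytarabine it was 1.02 (edgeR adjusted p 5.7e-08) and -1.0 (edgeR adjusted p 7.9e-08). All 6 WT libraries lay above all 12 libraries of the other lines. Between MUT and EV the CTGF difference was 0.02 in untreated cells (95% interval -0.15 to 0.19) and 0.02 in treated cells (-0.15 to 0.19).

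FJX1 was also higher in WT. Before treatment WT exceeded EV by 0.53 (SE 0.112, edgeR adjusted p 0.00355), a 1.44-fold difference, and no WT library overlapped the EV range. MUT lay below WT by -0.33 (SE 0.111, edgeR adjusted p 0.0405) and above EV by 0.20, which did not pass (edgeR adjusted p 0.233). The MUT minus WT call was lost with RLE factors, with the authors' factors, in DESeq2, and in 5 of the 6 fits that left out a WT or MUT untreated library (all but MUT replicate 3), with adjusted p from 0.0589 to 0.164. Under cytarabine the WT minus EV difference was 0.43 (SE 0.124, edgeR adjusted p 0.0232), although WT replicate 1 at 20.5 CPM lay inside the EV range. It no longer passed without EV cytarabine replicate 3 (0.34), WT cytarabine replicate 2 (0.28) or WT cytarabine replicate 3 (0.36), or when the 2 groups were fitted alone (0.42), with edgeR adjusted p from 0.0833 to 0.172.

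In untreated cells, 2 of the 10 genes (CTGF and FJX1) were called between WT and EV, both higher in WT, beside 11.7% of all tested genes. CYR61 was 0.38 higher in WT without passing (edgeR adjusted p 0.0658), but DESeq2 called it (0.37, adjusted p 0.0353). It also passed when the 2 groups were fitted alone (0.38, edgeR adjusted p 7.8e-09), as did FAT1, AMOTL2 and ANKRD1. Between MUT and EV none of the 10 was called and none had an unadjusted p under 0.05 in edgeR, beside 19.9% of all genes, and DESeq2 called none. That count rested on untreated MUT replicate 3, without which 4 were called, namely FAT1 (0.29), LATS2 (0.29) and AMOTL2 (0.23) higher and ANKRD1 (-0.28) lower in MUT, and without replicate 2 CYR61 was called (0.24). Between MUT and WT 4 were called lower in MUT, beside 21.2% of all genes called in either direction. Besides CTGF and FJX1 these were CYR61 (-0.38, SE 0.129, edgeR adjusted p 0.0436) and ANKRD1 (-0.29, SE 0.088, edgeR adjusted p 0.0236). Their calls were lost without untreated MUT replicate 2, where the values were -0.13 and -0.18, that of ANKRD1 also without MUT replicate 1 (-0.23), and both without any 1 of the 3 untreated WT libraries, where only CTGF remained.

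In treated cells, CTGF, FJX1 and CYR61 (0.47, SE 0.129, edgeR adjusted p 0.0172) were called higher in WT than in EV, 3 of 10 beside 16.5% of all genes. Without WT cytarabine replicate 2 only CTGF was called, and without EV cytarabine replicate 2 the CYR61 call was lost (0.42, edgeR adjusted p 0.0661). Between MUT and EV 2 of 10 were called, beside 14.0% of all genes. These were LATS2 (0.56, SE 0.095, edgeR adjusted p 6.2e-04), whose treated MUT libraries all lay above the treated EV and WT libraries, and AMOTL2 (0.28, SE 0.090, edgeR adjusted p 0.0467), which was lost when any 1 of the 6 libraries was left out. Between MUT and WT 4 of 10 were called, beside 19.8% of all genes. LATS2 (0.52, edgeR adjusted p 6.9e-04), AMOTL2 (0.30, edgeR adjusted p 0.0238) and DCHS1 (0.44, edgeR adjusted p 0.0326) were higher in MUT and CTGF lower. The DCHS1 call was lost without any of 5 of the 6 libraries (edgeR adjusted p up to 0.149) and that of AMOTL2 without any of 4 (up to 0.100), and without MUT replicate 3 or WT replicate 3 only LATS2 and CTGF were called.

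Levels of different genes were compared per kilobase of the canonical transcript. In untreated EV cells CYR61 stood first at 338 CPM per kb, followed by CTGF (123) and ANKRD1 (122), which overlapped, then AXL (88.3), AMOTL2 (46.2), FJX1 (39.0), FAT1 (13.4), LATS2 (11.5), DCHS1 (1.35) and FAT4 (0.576), with no other overlap between neighbours. In treated EV cells ANKRD1 (279 CPM per kb) reached the range of CYR61 (289), and FJX1 (8.72) dropped below FAT1 (13.1) into the range of LATS2 (8.90). In untreated WT cells FJX1 (56.1 CPM per kb) overlapped AMOTL2 (52.9), and after treatment it stood at 11.7, overlapping LATS2 (9.15). In MUT FJX1 went from 44.7 to 9.89 CPM per kb, below LATS2 (13.1) without overlap. CYR61 stayed first and FAT4 last in all 6 groups.

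The rest of the pathway was read from 4 lists of 48 further genes, of which 46 were tested. In EV 9 were called higher and 10 lower, in WT 11 and 9, and in MUT 19 and 5, with medians of 0.03, -0.01 and 0.21. Without untreated MUT replicate 3 the MUT split was 14 higher and 10 lower. Among all tested genes 26.1% were called higher and 22.9% lower in EV, 26.3% and 22.7% in WT, and 30.4% and 25.9% in MUT. The MUT counts of 19 and 5 of 46 thus lay above the share called higher and below the share called lower. That departure shrank without untreated MUT replicate 3, and it moved in other fits too. With RLE factors, in DESeq2 and without untreated MUT replicate 2, 8 were called lower. With the authors' library factors 9 were. When only the 2 groups compared were fitted, 12 were called higher. The same shares stand beside the counts of each list below.

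Other targets of YAP and TAZ (14 of 15 listed tested) held 0 called higher and 3 lower in EV, 0 and 3 in WT, and 3 and 0 in MUT, with median log2 fold changes of -0.10, -0.13 and 0.15. In EV these were ASAP1 (-0.49), an Arf GTPase-activating protein, F3 (-0.38), which encodes tissue factor, and FOXF2 (-0.36), a forkhead transcription factor. In WT they were TGFB2 (-0.58), a TGF-beta ligand, CCDC80 (-0.33) and FOXF2 (-0.32). In MUT they were RBMS3 (0.57), an RNA-binding protein, MYOF (0.37), a membrane repair protein, and ARHGEF17 (0.29), a guanine nucleotide exchange factor, each an edgeR log2 fold change. The F3 call was lost in 3 of 12 alternatives, each without 1 EV library (edgeR adjusted p up to 0.0902), and that of FOXF2 in WT without WT untreated replicate 2 (edgeR adjusted p 0.0645). MYOF and ARHGEF17 did not pass without untreated MUT replicate 3 (0.10 and 0.15), when 1 target was called higher and 2 lower. The MYOF call was lost in 7 of 12 alternatives and that of ARHGEF17 in 2 (edgeR adjusted p up to 0.221 and 0.0848).

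Of the other 3 genes of the FAT and Dachsous families, 2 were called higher and none lower in every line, with medians of 0.45, 0.79 and 0.67. The FAT2 rises were 1.33 in EV, 1.67 in WT and 1.83 in MUT (log2 fold change), at means of no more than 1.34 CPM. Its EV call (edgeR adjusted p 0.0482) was lost in 8 of 12 alternatives, with adjusted p up to 0.157, which left 1 of the 3 genes called higher in EV. Its MUT call was lost without untreated replicate 1 or 3 or cytarabine replicate 1 (edgeR adjusted p up to 0.0704). DCHS2, a paralogue of DCHS1, rose in EV (0.45) and MUT (0.67), and FAT3 in WT (0.79).

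Among 20 kinases and adaptors of the core cascade, 3 were called higher and 5 lower in EV, 4 and 5 in WT, and 7 and 4 in MUT, with medians of 0.03, -0.01 and 0.09. FRMD6, a FERM protein upstream of the MST kinases, changed by -0.93, -0.59 and -0.65 in EV, WT and MUT. NF2, which encodes the scaffold merlin, changed by -0.50, -0.53 and -0.36, and WWC1, which encodes its partner KIBRA, by -0.50, -0.53 and -0.52. LATS1, the paralogue of LATS2, fell in EV (-0.63) and WT (-0.54) and was at -0.19 in MUT, which did not pass. Those called higher in all lines included MOB1B (0.44, 0.55 and 0.73), a cofactor of the LATS kinases, and AMOTL1 (0.44, 0.75 and 0.82), the angiomotin next to AMOTL2. TAOK3 (0.41 in EV), LIMD1 (0.41 in WT) and WWC3 (0.77 in MUT) were the others among the largest rises. In EV the AMOTL1 call was lost without EV cytarabine replicate 2 (edgeR adjusted p 0.0549), and that of TAOK3 in 2 of 12 alternatives (edgeR adjusted p up to 0.0753).

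The transcription factors and coactivators themselves had 4 of 9 tested called higher and 2 lower in EV, 5 and 1 in WT, and 7 and 1 in MUT, and medians of 0.26, 0.22 and 0.36. WWTR1, which encodes TAZ, rose by 0.26, 0.43 and 0.45, and YAP1 by 0.20 in WT and 0.36 in MUT, with 0.12 in EV not passing. VGLL3, a TEAD cofactor, rose by 0.51, 0.60 and 0.81. The TEAD genes divided. TEAD2 rose by 0.32, 0.47 and 0.60 and TEAD3 by 0.27, 0.22 and 0.34, whereas TEAD4 changed by -0.79, -0.57 and -0.71, and TEAD1 fell in EV (-0.40).

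**Figure D5:**
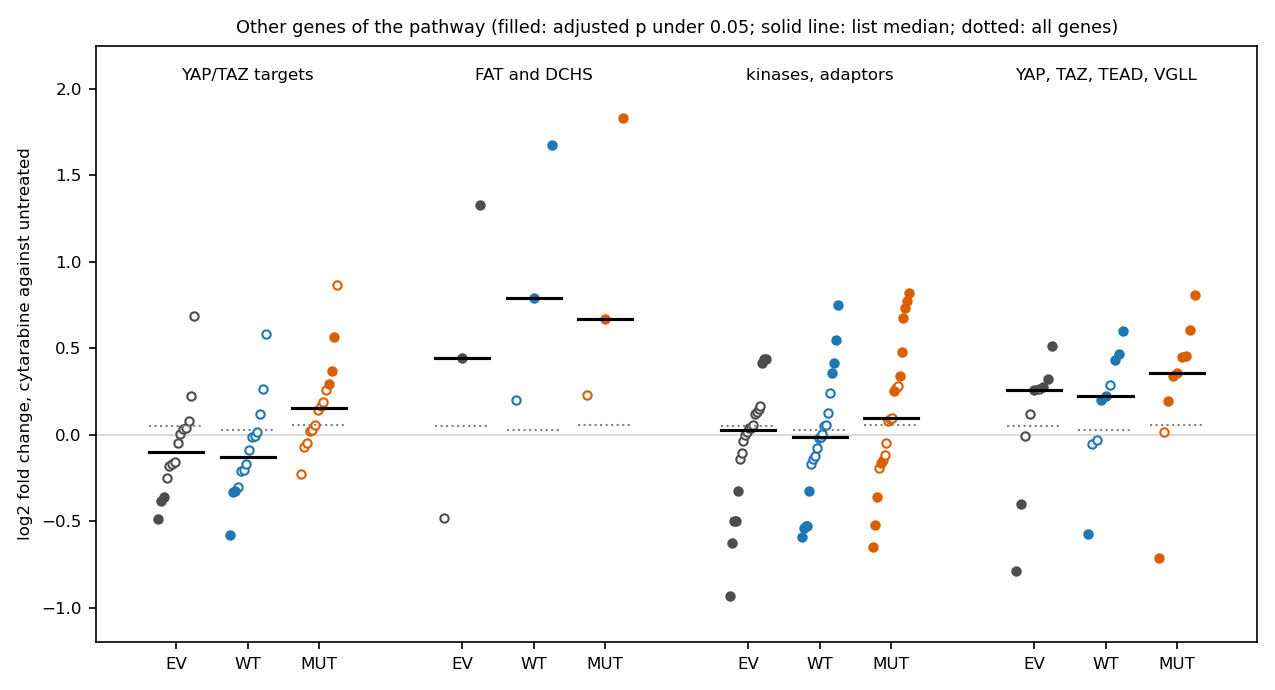
Log2 fold change under cytarabine (vertical axis) of the 46 further pathway genes by list and line; filled circles passed an adjusted p of 0.05 in edgeR, solid lines are list medians and dotted lines the median of all tested genes. The list of YAP, TAZ, TEAD and VGLL genes has medians of 0.26, 0.22 and 0.36, with TEAD4 lowest at -0.79, -0.57 and -0.71.

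The genes whose profile lay nearest to that of FJX1 over the 18 libraries came from outside these lists. Likeness was the root mean square difference between centred log2 CPM profiles among 13681 genes whose mean log2 CPM was 1 or more, where the median gene was at 1.14. The nearest was TRAF1 (0.316), a TNF receptor adaptor at 7.23 to 36.7 CPM, with log2 fold changes of -1.85, -1.45 and -1.89 in EV, WT and MUT. It was followed by THBS1 (0.367), the matrix protein thrombospondin 1, at -1.79, -1.69 and -1.53, and ODC1 (0.398), the first enzyme of polyamine synthesis, at -1.43, -1.43 and -1.87. RBM3 (0.422), a cold-inducible RNA-binding protein, and RRS1 (0.447), a ribosome assembly factor, came next. Like FJX1, they are found by their fall under cytarabine, and no test applies. Of the 9 other members AXL was nearest to FJX1 (0.884, place 1552), whereas 5 lay farther away than the median gene, ANKRD1 (1.70) and DCHS1 (1.76) the farthest of them. As many genes lie beyond a median as within it, so 5 of 9 says nothing particular about the members. Since FJX1 was chosen for its fall, genes that rose under cytarabine lie far from it by construction.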

How the data were processed

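RNA sequencing of 18 U2OS libraries was analysed from the authors' deposited tables. Per the labels' protocols, total RNA was extracted with Direct-zol RNA MiniPrep and libraries were made with NEBNext Ultra RNA Library Prep. The submitters' processing notes name CASAVA, STAR 2.6.1d and the build hg38, and the counting tool and its use of strand are not given in the sources used here. The deposited table holds estimated counts per gene symbol, not normalized (71.1% whole within 1e-06). A second deposited table holds a normalized signal that equals 1 plus a library factor times the count, within a relative 7.4e-06, and only those library factors were used from it. No column of another sample was present.

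Estimated counts were rounded and fitted with edgeR 4.0.16 in R 4.3.3 (filterByExpr, TMM, quasi-likelihood F test, all 18 libraries, 1 coefficient for each of the 6 groups). P-values were adjusted by Benjamini and Hochberg over all 18226 tested genes for each of 12 contrasts, at a threshold of 0.05. The common biological coefficient of variation was 0.104. Standard errors are the log2 fold change over the square root of F, and a prior count of 2 was used for log2 CPM. P-values measure the spread between the labelled biological replicates within a line and condition, with the estimate shared over all 18 libraries. Each vector was present in a single line. Comparisons between lines therefore hold no spread between independently made lines, and vector and line cannot be told apart. The alternatives were RLE factors, the authors' library factors, DESeq2 1.42.0, no filter on low counts, only the groups compared, a replicate block, and leaving out each library. Replicate numbers were not fitted as pairs in the main model. The correlation of deviations between same-numbered libraries of a line ran from -0.04 to 0.33.

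The 10 members and the gene lists were chosen with earlier results of these data known. Besides the members, the rule named up to 3 called genes with the largest rise and 3 with the largest fall per list and line, and the 5 genes nearest FJX1. Other list genes (the values of NF2 and WWC1 in every line, and of LATS1, YAP1, WWTR1, TEAD1 and TEAD3 outside the lines where the rule named them) complete those sets. Transcript lengths are exon lengths of canonical transcripts in GENCODE v44, matched by symbol, and coordinates are hg38. Promoter windows are from RefSeq. A further haematopoietic marker is not reported here.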

Additional observations from a re-analysis of the deposited data

Results flagged for a closer look

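Among the members, no difference between cytarabine effects passed the test. Of the 14 other YAP and TAZ targets tested, 2 differed between MUT and WT in the edgeR interaction test, beside 1.00% of all tested genes. These 2 were flagged because they passed. TGFB2, a TGF-beta ligand, had an effect 0.60 higher on the log2 scale in MUT than in WT (SE 0.101, edgeR adjusted p 0.00737). In WT its mean was 189.8 ± 5.53 CPM (SD, n = 3) untreated and 127 ± 6.51 CPM treated, and in MUT 176 ± 4.76 and 179 ± 4.43 CPM. RBMS3, an RNA-binding protein, had an effect 0.65 higher in MUT (SE 0.151, edgeR adjusted p 0.0410), with means of 21.96 ± 0.136 and 20.7 ± 1.39 CPM in WT and 30.8 ± 3.77 and 45.6 ± 1.71 CPM in MUT. In EV, WT and MUT the cytarabine effect was -0.15, -0.58 and 0.03 for TGFB2 and 0.22, -0.09 and 0.57 for RBMS3. Only that of TGFB2 in WT and that of RBMS3 in MUT passed. The EV values had edgeR adjusted p of 0.0816 and 0.0972. The TGFB2 difference passed in every alternative run. That of RBMS3 did not pass with the authors' library factors (0.63), without the filter on low counts (0.64), or when any 1 treated MUT, treated WT or untreated WT library was left out, with edgeR adjusted p up to 0.126.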

How the results depend on the processing

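The FJX1 fall lay between -2.41 and -2.08 in every alternative and line. Leaving out each library gave -2.22 to -2.08 in EV, -2.41 to -2.08 in WT and -2.25 to -2.14 in MUT, and the authors' library factors gave -2.26 in MUT. A fit of only the groups compared moved the counts of members called under cytarabine to 8 in WT and 7 in EV. FAT4 and CYR61 were gained in EV, and the FAT4 call in MUT was lost. Between lines the counts moved to 6 for untreated WT minus EV and 2 for untreated MUT minus WT. They moved to 5 for treated MUT minus EV and 7 for treated MUT minus WT. That of list genes called higher in MUT moved to 12. With RLE factors 1 member was called for untreated MUT minus WT, 1 for treated MUT minus EV, and 8 list genes lower in MUT. With the authors' library factors 1 member was called for untreated MUT minus WT and 9 list genes lower in MUT. DESeq2 gave 8 list genes lower in MUT and 1 member for the difference between the MUT and WT effects. It also called CYR61 for untreated WT minus EV and FAT4 for treated MUT minus EV (0.64, DESeq2 adjusted p 0.0465).

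Leaving out 1 library gave ranges of members called of 5 to 5 for cytarabine in EV and in WT, 3 to 6 in MUT, 2 to 2, 0 to 4 and 1 to 5 for untreated WT minus EV, MUT minus EV and MUT minus WT, and 1 to 3, 1 to 1 and 2 to 3 for the treated ones. For the differences between effects the ranges were 0 to 0, 0 to 1 and 0 to 1. For list genes higher they were 5 to 10 in EV, 10 to 11 in WT and 14 to 24 in MUT, and for those lower 9 to 13, 8 to 9 and 4 to 10. The value of 5 higher in EV was without EV cytarabine replicate 2. The cause of these shifts was not tested.

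Among the members' cytarabine effects, signs turned for values near 0 that had not passed the test. With the authors' library factors FAT1 in WT was -0.010, LATS2 in MUT -0.034, CYR61 in MUT -0.031, CTGF in EV -0.058 and CTGF in MUT -0.077. CTGF in MUT was -0.032 with RLE factors, -0.033 in DESeq2 and -0.0080 without the filter on low counts, where CTGF in EV was -0.0017. Leaving out 1 library gave -0.16 to 0.040 for FAT1 in EV, -0.11 to 0.12 for LATS2 in MUT, -0.19 to 0.17 for CYR61 in MUT, -0.019 to 0.049 for CTGF in EV and -0.13 to 0.082 for CTGF in MUT. The replicate block changed no count of members called, with 5, 5 and 4 under cytarabine in EV, WT and MUT, and gave an FJX1 fold change of -2.18 in MUT; 11 of 18 libraries correlated best with another library of their own number, a hint from the data only. Over all genes, the median cytarabine effect moved by less than 0.1 on the log2 scale under each scaling. Depth limits FAT4 most, with 62 counts in its lowest library.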
